A study of Caenorhabditis elegans with 6 samples.

Results

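Fatty acid oxidation and activation genes were chosen by symbol, as all genes named acdh, acox, ech, acs, cpt, kat or hacd with a number, together with daf-22, dhs-28 and maoc-1. They were 63 of the 19512 genes in the count table of whole Caenorhabditis elegans at the L4 larval stage. Of these 63 genes, 55 had enough reads for the test (the filterByExpr rule of edgeR), which was run on 11474 genes. The samples were wild-type N2 animals, about 10000 for each culture, which were fed from L1 on bacteria with an elt-2 RNAi construct or with an empty vector and collected after 28 hours. Each condition had 3 libraries, lettered A, B and C. ELT-2 is a GATA transcription factor of the intestine, and the design asked which transcripts depend on it at L4. The RNA came from whole worms, so fewer cells of a type and less RNA per cell cannot be told apart.

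Fatty acids are joined to coenzyme A by acyl-CoA synthetases before they are broken down. In mitochondria the acyl group enters through the carnitine shuttle and is shortened in a cycle of dehydrogenase, hydratase, hydroxyacyl-CoA dehydrogenase and thiolase steps. Peroxisomes run a similar cycle that begins with an acyl-CoA oxidase, and in C. elegans this chain also shortens the side chains of ascarosides, the signals known as dauer pheromone. The intestine is a main site of fat storage and breakdown in the worm.

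The target of the RNAi did not follow the labels. Normalised read counts are given as counts per 1000000 counts (CPM), scaled with TMM factors, which correct library sizes for a few very abundant transcripts. elt-2 (C33D3.1) had 33.4, 5.82 and 179 CPM in RNAi-labelled libraries A to C, against 4.09, 1.54 and 3.32 CPM in control-labelled libraries A to C. It was higher in the RNAi-labelled libraries, by 4.60 ± 1.16 on the log2 scale (± SE, adjusted p by edgeR = 0.0395, exact two-sided permutation p = 0.1, the smallest that 3 against 3 allows). Without elt-2 RNAi C the difference was 2.80 (adjusted p by edgeR = 0.135), and without control A it was 4.70 (adjusted p by edgeR = 0.104). Directions below are therefore between libraries as labelled.

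Library totals were 29578175 to 35047530 counts in the RNAi-labelled libraries, against 16568515 to 24168901 in the control-labelled ones. The TMM factors were 0.491 to 0.697 in the RNAi-labelled libraries and 0.973 to 3.47 in the control-labelled ones. Markers of several tissues differed too. Their calls are read beside the 15.9% of all tested genes that were lower and the 13% that were higher in the RNAi-labelled libraries. Summed CPM of the 10 intestine markers, all tested, was 1953 to 5172 in the RNAi-labelled libraries and 623 to 2346 in the control-labelled ones, with 1 marker lower and 3 higher by the test. Hypodermis markers (7 genes, 6 tested) summed to 9350 to 14912 CPM in the RNAi-labelled libraries and 295 to 8742 CPM in the control-labelled ones, with 3 lower and 0 higher. In the RNAi-labelled libraries and control C nearly the whole sum was col-19, an adult cuticle collagen. Without it the markers summed to 11.5 to 15.9 CPM in the RNAi-labelled libraries and 11.3 to 296 CPM in the control-labelled ones. Sperm markers (36 genes, 30 tested) summed to 10836 to 17489 CPM in the RNAi-labelled libraries and 843 to 7678 CPM in the control-labelled ones, with 0 lower and 8 higher. Of muscle markers 0 of 6 were lower and 2 higher, of germline markers 2 of 6 were lower and 1 higher, and of neuron markers 3 of 5 were lower and 0 higher. The sperm markers msp-79, msp-113 and both genes named msd-1 had 0 counts in every library, and no intestine or hypodermis marker did. The hypodermis markers also differed within the control-labelled libraries. noah-1 had 45.8, 18.8 and 1.36 CPM and dpy-10 had 43.5, 44.5 and 1.06 CPM in control A to C, with sqt-3 and dpy-7 also lowest in control C. col-19 had 123, 626 and 8731 CPM there, with rol-6 and bli-1 also highest in control C. The parts of depth, of the marker tissues and of worm stage at collection in the results below were not tested.

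Of the 55 tested members, 13 passed edgeR's quasi-likelihood test at a Benjamini-Hochberg adjusted p under 0.10. That is 23.6% of them, against 28.9% of all tested genes. In the RNAi-labelled libraries 8 members (14.5%) were lower, against 15.9% of all genes, and 5 (9.09%) were higher, against 13%. Neither share exceeded that of all genes. An unadjusted p under 0.05 was found for 17 members. The p-values measure the spread between the 3 libraries of each label, which the study describes as biological triplicates. The median log2 fold change was -0.13 over the members and -0.12 over all tested genes. Summed over all 63 members the level was 733, 1078 and 803 CPM in RNAi-labelled libraries A to C and 708, 575 and 742 CPM in control-labelled libraries A to C. The groups overlapped, and a single gene, ech-7, set this order. Without ech-7, left out after its values were seen, the sum was 732, 774 and 802 CPM in RNAi-labelled libraries A to C and 686, 574 and 625 CPM in control-labelled libraries A to C, without overlap. As a percentage of raw library counts, all members with ech-7 made up 0.0511, 0.0684 and 0.0394 in RNAi-labelled libraries A to C. In control-labelled libraries A to C this was 0.244, 0.0781 and 0.0721, without overlap and in the opposite direction. The direction of the sum thus depended on the scaling. In 19 tested members (34.5%) the labelled groups did not overlap in CPM, against 46.7% of all genes. The split of 8 lower and 5 higher changed with the scaling. Scaled by raw totals (library size alone) it was 30 lower and 2 higher, while 52.3% of all genes were lower, 3.84% were higher and the median of all genes moved to -1.76. With library sizes taken without the most abundant 3% of genes it was 21 lower and 4 higher, beside 33.9% and 9.26% of all genes and that median at -0.68. Without elt-2 RNAi C a single one of the 13 calls, acs-6, was still made, while 20 of all tested genes were then called lower (0.157%) and 445 higher (3.5%).

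**Figure D1:**
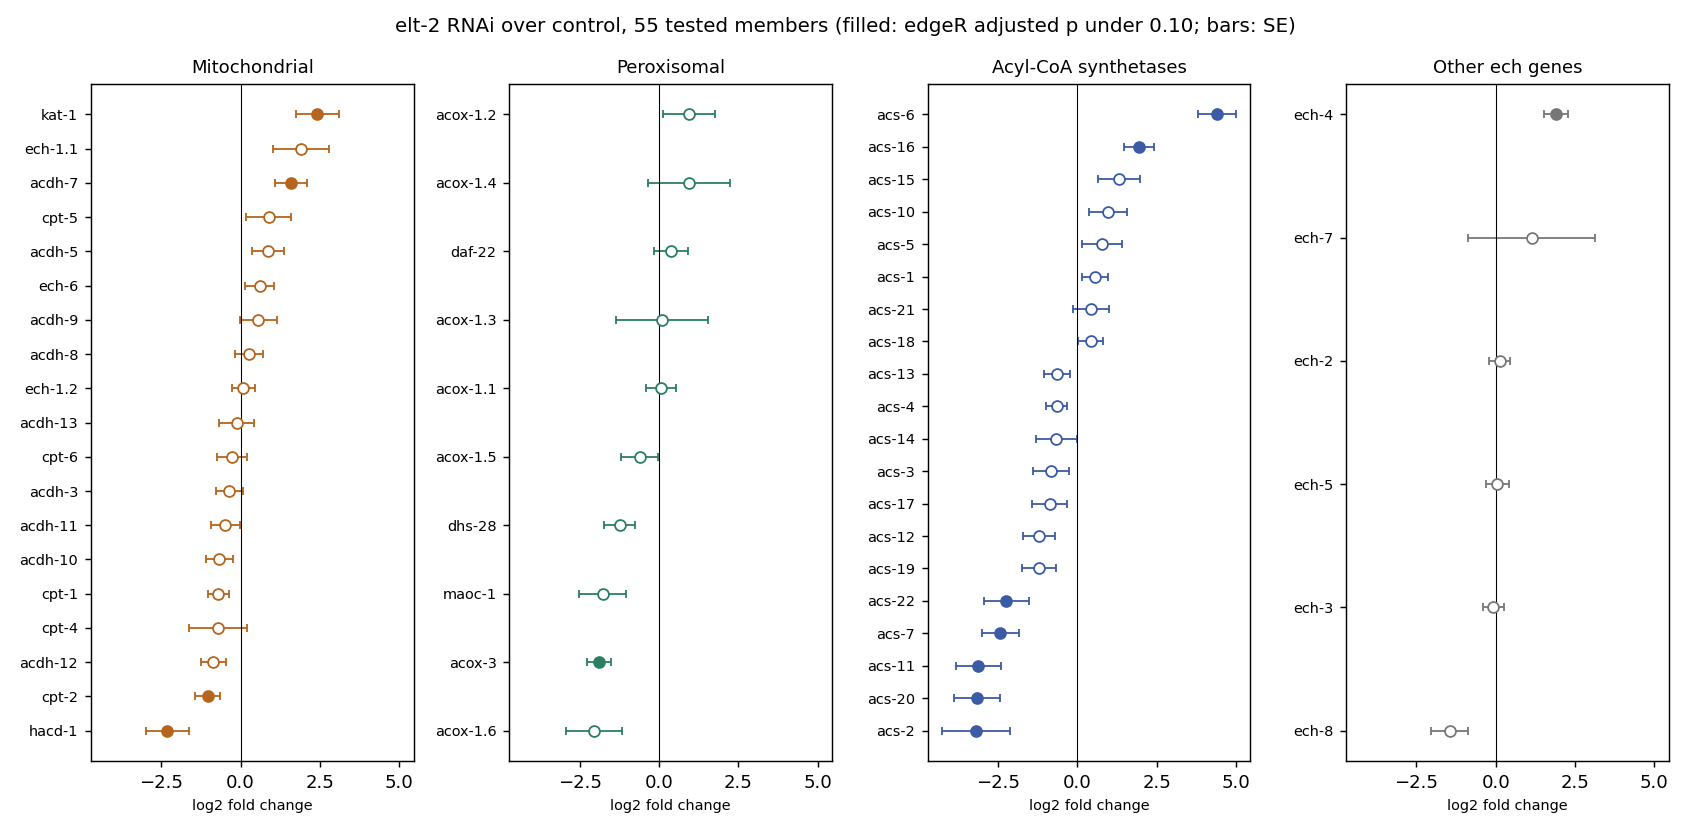
Log2 fold change (x axis, RNAi-labelled libraries over the control-labelled ones) of the 55 tested members in 4 panels by class, with bars of 1 SE and filled points for members with an adjusted p by edgeR under 0.10. Both directions occur in every class, and the values run from -3.19 in acs-2 to 4.40 in acs-6.

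The mitochondrial members were 24 genes, of which 19 were tested, with a median log2 fold change of -0.13. In the RNAi-labelled libraries 2 were lower (10.5%) and 2 higher (10.5%), against 15.9% and 13% of all tested genes. The carnitine shuttle was represented by cpt-1, the outer membrane transferase, and cpt-2, the inner membrane one. cpt-2 (R07H5.2, chromosome IV, 11179645 to 11183008 on the plus strand of WBcel235, the build of all positions given here) had 6.26, 8.70 and 6.17 CPM in RNAi-labelled libraries A to C, against 19.2, 8.92 and 15.4 CPM in control-labelled libraries A to C. The groups stood apart by a small margin only, between both B libraries. The log2 fold change of cpt-2 was -1.04 ± 0.39 (± SE, adjusted p by edgeR = 0.0989). It lost the call in 5 of the 6 fits that left out 1 library, with -0.90 without control A (adjusted p by edgeR = 0.197), -0.89 without control C (0.187), -0.88 without elt-2 RNAi A (0.235), -1.13 without elt-2 RNAi B (0.166) and -0.88 without elt-2 RNAi C (0.308). It also missed the threshold without a count filter (-1.0, adjusted p by edgeR = 0.134) and in DESeq2 (-0.95, adjusted p = 0.104). cpt-1 (Y46G5A.17) had 14.9, 13.4 and 11.7 CPM in RNAi-labelled libraries A to C and 25.1, 22.5 and 17.4 CPM in control-labelled libraries A to C. Its groups did not overlap either, and its log2 fold change of -0.70 ± 0.33 did not pass the test (adjusted p by edgeR = 0.164).

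Acyl-CoA dehydrogenases carry out the first oxidation of the mitochondrial cycle. Of 13 acdh genes 9 were tested, with a median log2 fold change of -0.13. The test was passed by 1 (11.1%, against 28.9% of all tested genes). acdh-7 (T25G12.5, chromosome X, 17215018 to 17217105 on the minus strand), related to the medium-chain dehydrogenase of mammals, had 87.2, 53.5 and 88.1 CPM in RNAi-labelled libraries A to C, against 14.0, 41.1 and 21.7 CPM in control-labelled libraries A to C. The B libraries were the closest pair, with elt-2 RNAi B the lowest and control B the highest of its group. acdh-7 averaged 76.2 ± 19.7 CPM in the RNAi-labelled libraries and 25.6 ± 14.0 CPM in the control-labelled ones (SD, n = 3 each), a log2 fold change of 1.57 ± 0.51 (± SE, adjusted p by edgeR = 0.0690). This call was lost without control A (1.18, adjusted p by edgeR = 0.124), control C (1.57, 0.114), elt-2 RNAi A (1.54, 0.146), elt-2 RNAi B (1.86, 0.111) or elt-2 RNAi C (1.53, 0.210), and also with library size alone (0.14, 0.850), and without the most abundant 3% of genes in the library size (1.05, 0.103). Its neighbour acdh-10, 114 bp away on the same strand and named after its values were seen, had 12.1, 17.8 and 23.2 CPM in RNAi-labelled libraries A to C and 32.1, 35.1 and 17.2 CPM in control-labelled libraries A to C. The acdh-10 groups overlapped and the test was not passed (log2 fold change -0.67 ± 0.43, adjusted p by edgeR = 0.275). Its sign was thus not settled, and a difference in direction from acdh-7 was not shown. The very-long-chain relative acdh-12 had 12.4, 14.7 and 9.89 CPM in RNAi-labelled libraries A to C and 27.9, 13.8 and 25.2 CPM in control-labelled libraries A to C, and did not pass the test (-0.86 ± 0.39, adjusted p by edgeR = 0.152). acdh-11, which limits fatty acid desaturation in heat, was at -0.48 ± 0.46 (adjusted p by edgeR = 0.464).

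The later steps of the cycle split in direction. hacd-1 (R09B5.6, chromosome V, 1460369 to 1461613 on the plus strand) encodes a hydroxyacyl-CoA dehydrogenase. It had 4.03, 4.72 and 1.22 CPM in RNAi-labelled libraries A to C, against 30.5, 8.03 and 10.8 CPM in control-labelled libraries A to C. Every RNAi-labelled library was below every control-labelled library, and the log2 fold change was -2.30 ± 0.67 (± SE, adjusted p by edgeR = 0.0554). The call was lost without control A (-1.59, adjusted p by edgeR = 0.146), elt-2 RNAi A (-2.37, 0.121), elt-2 RNAi B (-2.53, 0.111) or elt-2 RNAi C (-1.82, 0.191). kat-1 (T02G5.8, chromosome II, 7073814 to 7075511 on the plus strand) encodes a thiolase of the last step. It had 131, 138 and 186 CPM in RNAi-labelled libraries A to C, against 6.54, 38.3 and 40.4 CPM in control-labelled libraries A to C. The groups were far apart, with control A lowest, and the log2 fold change of kat-1 was 2.42 ± 0.68 (± SE, adjusted p by edgeR = 0.0516). Calls for kat-1 were lost without elt-2 RNAi A (2.57, adjusted p by edgeR = 0.105), elt-2 RNAi B (2.55, 0.112) or elt-2 RNAi C (2.30, 0.179), and kept with library size alone (1.25, 0.0689).

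The hydratase step showed no call. ech-1.1 and ech-1.2, related to the alpha subunit of the trifunctional protein, were at 1.90 ± 0.89 and 0.09 ± 0.36 on the log2 scale (adjusted p by edgeR = 0.159 and 0.872). ech-1.1 (C29F3.1) had 5.48, 9.59 and 11.8 CPM in RNAi-labelled libraries A to C, against 0.175, 4.03 and 3.06 CPM in control-labelled libraries A to C, so that its groups did not overlap although the test was not passed. ech-6, related to the short-chain hydratase, had 31.0, 54.9 and 40.5 CPM in RNAi-labelled libraries A to C and 15.2, 31.2 and 37.2 CPM in control-labelled libraries A to C (0.60 ± 0.46, adjusted p by edgeR = 0.354). The sign of ech-1.2 turned when control A or elt-2 RNAi A was left out (-0.08 and -0.12), and that of ech-6 turned with library size alone (-0.78). The 15 mitochondrial members that were tested and not called ranged from -0.86 to 1.90.

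The peroxisomal members were 10 genes, all tested, with a median log2 fold change of -0.27. In the RNAi-labelled libraries 1 was lower (10%) and 0 were higher, against 15.9% and 13% of all tested genes. Acyl-CoA oxidases carry out the first peroxisomal step, and 1 of 7 passed the test (14.3%, against 28.9% of all tested genes). acox-3 (F58F9.7, chromosome IV, 6245358 to 6248492 on the minus strand) had 1.55, 1.36 and 1.34 CPM in RNAi-labelled libraries A to C, against 5.07, 3.84 and 6.89 CPM in control-labelled libraries A to C. The RNAi-labelled libraries were close to each other and all below the control-labelled ones, with a log2 fold change of -1.89 ± 0.38 (± SE, adjusted p by edgeR = 0.0215). Without elt-2 RNAi C the value was -1.78 and the call was lost (adjusted p by edgeR = 0.138). acox-1.6 had the most negative value of the class, with 0.146, 0.524 and 0.0582 CPM in RNAi-labelled libraries A to C and 1.96, 0.384 and 0.681 CPM in control-labelled libraries A to C. Its groups overlapped through the B libraries (-2.05, adjusted p by edgeR = 0.138).

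The 3 enzymes after the oxidase were not called. maoc-1 (E04F6.3), the enoyl-CoA hydratase, had 0.873, 1.78 and 0.116 CPM in RNAi-labelled libraries A to C, against 3.56, 2.14 and 3.87 CPM in control-labelled libraries A to C. Its groups did not overlap, with both B libraries nearest to each other (-1.78 ± 0.75, adjusted p by edgeR = 0.129). dhs-28 (M03A8.1), the hydroxyacyl-CoA dehydrogenase, had 7.08, 17.7 and 6.22 CPM in RNAi-labelled libraries A to C and 26.6, 16.9 and 29.4 CPM in control-labelled libraries A to C. It overlapped through the B libraries alone (-1.24 ± 0.49, adjusted p by edgeR = 0.114). daf-22 (Y57A10C.6), the thiolase, had 28.4, 27.3 and 27.2 CPM in RNAi-labelled libraries A to C and 7.0, 31.0 and 26.4 CPM in control-labelled libraries A to C. Control A alone stood apart in daf-22 (0.37 ± 0.54, adjusted p by edgeR = 0.630), and without it the sign turned to -0.16. maoc-1 and acdh-12 lie 634 bp apart on chromosome II and are transcribed away from each other. Another protein-coding gene overlaps maoc-1, dhs-28 and acdh-12 on the opposite strand, and the use of strand in counting was not given in the sources used here.

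**Figure D2:**
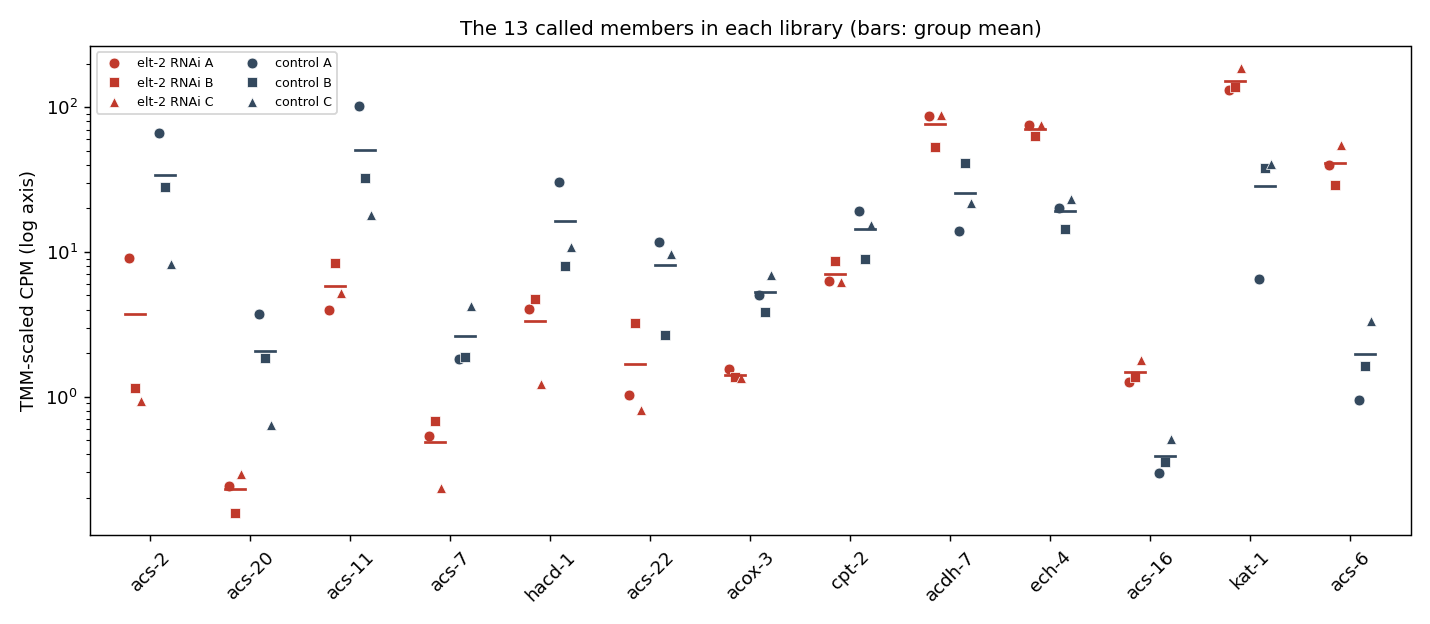
TMM-scaled CPM (log axis) of the 13 called members, ordered by fold change, with a point for each library and a bar at each group mean. The labelled groups overlap in acs-2 and acs-22 and stand apart in the other 11, with a narrow gap in cpt-2.

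The acyl-CoA synthetases were 22 acs genes, of which 20 were tested, with a median log2 fold change of -0.66. In the RNAi-labelled libraries 5 were lower (25%) and 2 higher (10%), against 15.9% and 13% of all tested genes. acs-2, a mitochondrial synthetase known as a fasting-induced target of NHR-49, had the most negative value of all members. acs-2 (F28F8.2, chromosome V, 15567394 to 15569897 on the plus strand) had 9.03, 1.15 and 0.931 CPM in RNAi-labelled libraries A to C, against 65.8, 28.0 and 8.25 CPM in control-labelled libraries A to C. The groups overlapped, since elt-2 RNAi A was above control C, and acs-2 was at -3.19 ± 1.06 (± SE, adjusted p by edgeR = 0.0750). The call was lost without control A (-2.33, adjusted p by edgeR = 0.199), elt-2 RNAi B (-2.65, 0.176) or elt-2 RNAi C (-2.63, 0.227). Transcripts of nhr-49, which encodes this nuclear receptor, and of mdt-15, which encodes a mediator subunit, were also lower by the test. Each was called in 2 of the 6 fits that left out 1 library, and both are given with the regulators. Protein was not measured, and a link between these genes and acs-2 was not tested.

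acs-20 and acs-22 are related to the fatty acid transport proteins of mammals, which join uptake and activation. acs-20 (F28D1.9, chromosome IV, 12392121 to 12398706 on the minus strand) had 5, 3 and 5 counts in RNAi-labelled libraries A to C, or 0.243, 0.157 and 0.291 CPM, against 211, 58 and 15 counts in control-labelled libraries A to C, or 3.70, 1.85 and 0.638 CPM. The groups did not overlap, with few reads behind the low values, and the log2 fold change was -3.16 ± 0.73 (± SE, adjusted p by edgeR = 0.0325). acs-20 lost its call without elt-2 RNAi B (-2.84, adjusted p by edgeR = 0.111) or elt-2 RNAi C (-3.25, 0.141). acs-22 (D1009.1, chromosome X, 8931179 to 8939263 on the plus strand) had 1.02, 3.25 and 0.814 CPM in RNAi-labelled libraries A to C, against 11.8, 2.69 and 9.70 CPM in control-labelled libraries A to C. Both B libraries crossed over, and acs-22 was at -2.25 ± 0.71 (± SE, adjusted p by edgeR = 0.0664). Its call was lost without control A (-1.98, adjusted p by edgeR = 0.165), elt-2 RNAi A (-1.91, 0.174) or elt-2 RNAi C (-1.85, 0.226). The gene dylt-2 overlaps acs-22 on the opposite strand.

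acs-7, known for the activation of ascaroside side chains in peroxisomes, was lower as well. acs-7 (C01G6.7, chromosome II, 9292017 to 9294033 on the plus strand) had 0.534, 0.681 and 0.233 CPM in RNAi-labelled libraries A to C, against 1.81, 1.89 and 4.21 CPM in control-labelled libraries A to C. Its groups stood apart, with a log2 fold change of -2.42 ± 0.58 (± SE, adjusted p by edgeR = 0.0350), and without elt-2 RNAi C the call was lost (-2.05, adjusted p by edgeR = 0.165). With the library letter added to the model (replicate block) it was lost too (-2.36, adjusted p by edgeR = 0.117). Few reads lay behind the low values of acs-7, with 11, 13 and 4 counts in RNAi-labelled libraries A to C. Control-labelled libraries A to C had 103, 59 and 99 counts. C01G6.9 overlaps acs-7 on the opposite strand. acs-11 (F41C3.3, chromosome II, 4742137 to 4745280 on the plus strand) had 3.98, 8.33 and 5.18 CPM in RNAi-labelled libraries A to C, against 101, 32.6 and 18.0 CPM in control-labelled libraries A to C. The control-labelled libraries were spread widely and all above the RNAi-labelled ones, at -3.12 ± 0.70 (± SE, adjusted p by edgeR = 0.0294), and the call did not hold without elt-2 RNAi C (-2.94, adjusted p by edgeR = 0.154).

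In the other direction acs-6 had the largest log2 fold change of the 55 tested members. acs-6 (ZK1127.2, chromosome II, 7062030 to 7064846 on the plus strand) had 820, 550 and 948 counts in RNAi-labelled libraries A to C, or 39.8, 28.8 and 55.2 CPM, against 54, 51 and 78 counts in control-labelled libraries A to C, or 0.947, 1.63 and 3.32 CPM. Every RNAi-labelled library was far above every control-labelled library. acs-6 averaged 41.3 ± 13.2 CPM in the RNAi-labelled libraries and 1.97 ± 1.22 CPM in the control-labelled ones (SD, n = 3 each), a log2 fold change of 4.40 ± 0.59 (± SE, adjusted p by edgeR = 0.00565). It was called in all 6 fits that left out 1 library, with adjusted p by edgeR from 0.00525 to 0.0376, and with library size alone. acs-6 and kat-1, both higher, lie on the same strand of chromosome II with 8967 bp between them. acs-16 (F47G6.2, chromosome I, 1471075 to 1479923 on the plus strand) had 1.26, 1.36 and 1.80 CPM in RNAi-labelled libraries A to C, against 0.298, 0.352 and 0.510 CPM in control-labelled libraries A to C. Its groups stood apart, at 1.94 ± 0.48 (± SE, adjusted p by edgeR = 0.0370). Few reads lay behind this, with 26, 26 and 31 counts in RNAi-labelled libraries A to C and 17, 11 and 12 in control-labelled libraries A to C. acs-16 lost its call without control A (1.64, adjusted p by edgeR = 0.104), elt-2 RNAi B (2.07, 0.103) or elt-2 RNAi C (1.84, 0.171). It also lost the call with library size alone (0.40, adjusted p by edgeR = 0.670) and with the replicate block (1.94, 0.115).

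The other 13 tested synthetases ranged from -1.22 to 1.3 on the log2 scale without a call. acs-19, an acetyl-CoA synthetase, had 13.6, 27.7 and 17.5 CPM in RNAi-labelled libraries A to C and 80.1, 27.5 and 29.3 CPM in control-labelled libraries A to C. It overlapped through the B libraries by a narrow margin (-1.22 ± 0.54, adjusted p by edgeR = 0.141). acs-1, which serves branched-chain fatty acids, had 11.4, 23.2 and 17 CPM in RNAi-labelled libraries A to C and 7.63, 14.5 and 12.8 CPM in control-labelled libraries A to C (0.56 ± 0.41, adjusted p by edgeR = 0.336). acs-15 was the highest of the 13 (1.3 ± 0.66, adjusted p by edgeR = 0.185).

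For 7 ech genes of the hydratase and isomerase family no compartment was assigned. Of 6 tested, 1 was higher in the RNAi-labelled libraries (16.7%, against 13% of all tested genes). ech-4 (R06F6.9, chromosome II, 10821031 to 10822391 on the plus strand), related to an isomerase of unsaturated acyl-CoA, had 75.1, 62.8 and 75.5 CPM in RNAi-labelled libraries A to C, against 20.2, 14.3 and 23.1 CPM in control-labelled libraries A to C. The groups were tight and well apart, at 1.89 ± 0.38 (± SE, adjusted p by edgeR = 0.0226). The call did not hold without elt-2 RNAi C (1.92, adjusted p by edgeR = 0.114) and with library size alone (0.21, 0.786), and R06F6.12 overlaps ech-4 on the opposite strand. ech-8 had 0.922, 0.839 and 0.349 CPM in RNAi-labelled libraries A to C and 2.05, 0.927 and 2.85 CPM in control-labelled libraries A to C, without overlap and without a call (-1.45 ± 0.59, adjusted p by edgeR = 0.117). ech-2, ech-3 and ech-5 were at 0.12, -0.07 and 0.05 on the log2 scale (adjusted p by edgeR of at least 0.80), and their signs turned under several settings.

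The mitochondrial and peroxisomal classes were compared over the 6 libraries by the median, over each class, of the deviation of log2 CPM from the gene's own mean. The mitochondrial median was -0.18, 0.28 and 0.11 in RNAi-labelled libraries A to C and 0.16, -0.22 and 0.35 in control-labelled libraries A to C. It did not separate the labelled groups. The peroxisomal median was -0.71, 0.32 and -1.07 in RNAi-labelled libraries A to C and 0.39, 0.07 and 1.02 in control-labelled libraries A to C. It was low in elt-2 RNAi A and C, while elt-2 RNAi B lay among the control-labelled libraries. Between libraries the SD of the peroxisomal median was 0.616, against 0.263 for the mitochondrial one and 0.249 for the synthetases.

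The peroxisomal minus the mitochondrial median was -0.53, 0.05 and -1.19 in RNAi-labelled libraries A to C, against 0.23, 0.29 and 0.66 in control-labelled libraries A to C. Every RNAi-labelled library was below every control-labelled library, and elt-2 RNAi B and control A were the closest pair. The difference is a description of these libraries and was not tested. When ech-4 and ech-8 were added to the peroxisomal class and ech-5 and ech-7 to the mitochondrial class, it was -0.29, -0.04 and -1.01 in RNAi-labelled libraries A to C and 0.23, 0.08 and 0.66 in control-labelled libraries A to C. The gap between the groups then narrowed to the B libraries. Without elt-2 RNAi B the median log2 fold change of the peroxisomal members was -1.78, against -0.27 with all libraries, so that this library decided its size. The synthetases had medians of -0.13, -0.04 and -0.56 in RNAi-labelled libraries A to C. In control-labelled libraries A to C these were 0.49, 0.06 and 0.19. The groups did not overlap, with both B libraries nearest to each other. Over all tested genes the median was -0.03, 0.03 and -0.04 in RNAi-labelled libraries A to C. In control-labelled libraries A to C it was 0.12, 0.08 and 0.07, so the groups did not overlap there either.

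**Figure D3:**
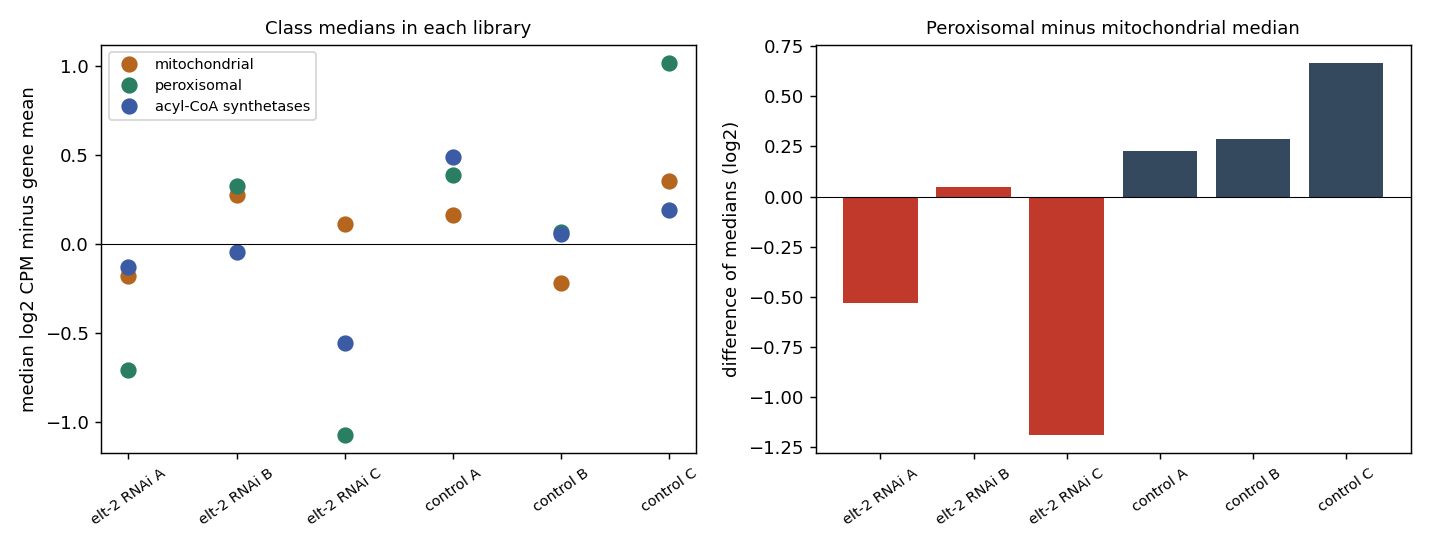
Left, the class median of log2 CPM minus each gene's mean, for mitochondrial members, peroxisomal members and acyl-CoA synthetases in each library. Right, the peroxisomal minus the mitochondrial median, which is -1.19 to 0.05 in the RNAi-labelled libraries and 0.23 to 0.66 in the control-labelled ones.

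The B libraries recurred in many members. Control B was the lowest of its group and elt-2 RNAi B the highest of its group in 21 of the 55 tested members (38.2%), against 20.1% of all tested genes. The count was 7 of 10 peroxisomal, 6 of 19 mitochondrial, 6 of 20 synthetase and 2 of 6 other ech genes. The opposite arrangement was found in 6 members (10.9%), against 15.3% of all genes. Among the 17 tested genes of a list of other peroxisome genes, 12 had the first arrangement (70.6%). These counts are descriptions, and the members share their libraries. Differences taken within each letter showed the same libraries. The median log2 difference, elt-2 RNAi over control, was -1.49, 0.22 and -2.27 for letters A, B and C in the peroxisomal members and 0.20, 0.74 and -0.34 in the mitochondrial members, against -0.14, -0.09 and -0.06 over all genes.

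ech-7 (Y105E8A.4, chromosome I, 14367616 to 14369773 on the minus strand) had the widest swing, with 25, 5795 and 25 counts in RNAi-labelled libraries A to C and 1266, 31 and 2736 counts in control-labelled libraries A to C. On the CPM scale these were 1.21, 304 and 1.45 in RNAi-labelled libraries A to C and 22.2, 0.991 and 116 in control-labelled libraries A to C. Both groups held high and low libraries, so its log2 fold change of 1.14 ± 2.0 had no settled sign (adjusted p by edgeR = 0.693), and without elt-2 RNAi B it was -5.07. The oxidase genes acox-1.1, acox-1.2, acox-1.3 and acox-1.4 lie in a row on the plus strand of chromosome I, from 12938555 to 12954003, with 52, 343 and 34 bp between them, and shared this arrangement. acox-1.4 had 0.146, 4.82 and 0.233 CPM in RNAi-labelled libraries A to C and 0.579, 0.160 and 2.0 CPM in control-labelled libraries A to C (0.95 ± 1.3, adjusted p by edgeR = 0.607). acox-1.3, named after its values were seen, had 0.0485, 1.89 and 0.0582 CPM in RNAi-labelled libraries A to C and 0.246, 0.0320 and 1.66 CPM in control-labelled libraries A to C. In both genes elt-2 RNAi B and control C were the high libraries. acox-1.2 had 1.60, 6.55 and 2.97 CPM in RNAi-labelled libraries A to C and 0.737, 0.736 and 4.34 CPM in control-labelled libraries A to C. acox-1.1 had a smaller swing, with 2.96, 5.77 and 1.92 CPM in RNAi-labelled libraries A to C and 2.82, 2.78 and 4.64 CPM in control-labelled libraries A to C. Whether reads past the end of one gene were counted for the next was not tested, and the 4 genes are not independent values. Without them, a setting chosen after the values were seen, the peroxisomal minus the mitochondrial median was -0.53, 0.00 and -1.22 in RNAi-labelled libraries A to C and 0.71, 0.71 and 0.47 in control-labelled libraries A to C.

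**Figure D4:**
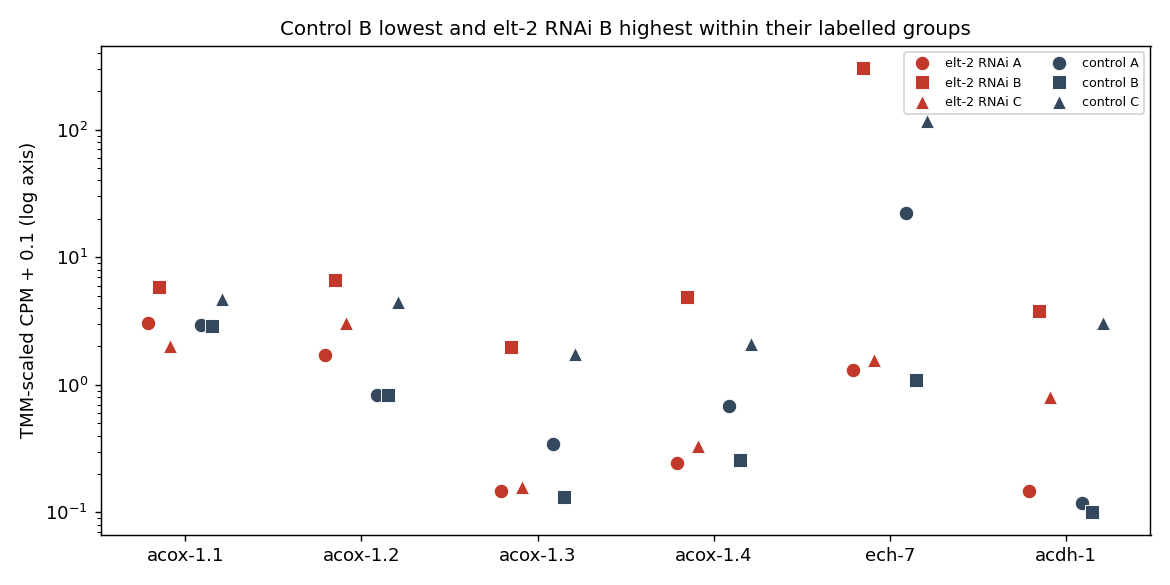
TMM-scaled CPM plus 0.1 (log axis) of 6 members in which control B is the lowest and elt-2 RNAi B the highest library of its group, with a symbol for each library. In acox-1.3, acox-1.4, ech-7 and acdh-1 elt-2 RNAi B and control C stand highest.

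The count filter was not reached by 8 members: acdh-1, acdh-2, acdh-4, acdh-6, acs-9, acs-24, cpt-3 and ech-9. acdh-1 (C55B7.4), which acts in the propionate shunt, had 1, 71 and 12 counts in RNAi-labelled libraries A to C and 1, 0 and 69 counts in control-labelled libraries A to C. ech-9, named after its values were seen, had 0, 1 and 0 counts in RNAi-labelled libraries A to C and 183, 1 and 0 counts in control-labelled libraries A to C. Its reads thus came from control A almost alone, and its neighbour ech-8 lies 1296 bp away on the same strand. Of the 63 members 16 overlap another protein-coding gene, 13 of them on the opposite strand only.

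Other genes of the pathway were read from lists, with calls counted as for the members. The shares of all tested genes, 15.9% lower and 13% higher, apply here too, and with lists this short they leave the counts as descriptions. Among the regulators of fat oxidation 3 of 9 were lower and 0 higher, with a list median of -0.75. nhr-49 had 4.17, 7.92 and 5.93 CPM in RNAi-labelled libraries A to C and 24.6, 12.5 and 10.3 CPM in control-labelled libraries A to C. Its groups did not overlap, and it was at -1.40 with adjusted p by edgeR = 0.0699, beside mdt-15 at -1.24 (0.0665) and nhr-10, a receptor of the propionate response, at -1.61 (0.0731). Among peroxisome genes 3 of 17 were lower (17.6%, near the share of all genes) and 0 higher, with a median of -0.64. The 3 were peroxins, which build the organelle: prx-10 at -1.46, prx-14 at -1.27 and prx-12 at -1.92 (adjusted p by edgeR = 0.0432, 0.0639 and 0.0959). The next list was headed other mitochondrial oxidation genes, which does not give the role of each gene. It had 2 lower and 2 higher of 10, with a median of -0.03. These were let-721, which passes electrons on to ubiquinone, at -1.24, mlcd-1, a malonyl-CoA decarboxylase, at -1.45, hadb-1, related to the beta subunit of the trifunctional protein, at 1.33, and mecr-1, an enoyl reductase, at 2.13 (adjusted p by edgeR = 0.0458, 0.0711, 0.0879 and 0.0258). Among propionate breakdown genes 1 of 8 was lower (12.5%) and 0 higher, with a median of -0.40, and the lower one was mce-1 at -1.34 (adjusted p by edgeR = 0.0689). The list headed lipid release genes, which also holds acbp genes, had a median of -0.17. In it 3 of 9 were lower, acbp-3 at -3.70, lid-1 at -1.70 and lipl-1 at -1.25 (adjusted p by edgeR = 0.0296, 0.0317 and 0.0951). The 1 higher was acbp-6 at 1.47 (adjusted p by edgeR = 0.0822). Without elt-2 RNAi C none of these 15 genes was called (adjusted p by edgeR from 0.128 to 0.263). Over the 6 fits that left out 1 library, mecr-1 and acbp-3 were called in 5, lid-1 in 4, and let-721 and prx-10 in 3. In 2 fits mlcd-1, mdt-15, nhr-49, nhr-10 and lipl-1 were called, and in 1 fit hadb-1, mce-1, prx-14, prx-12 and acbp-6.

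**Figure D5:**
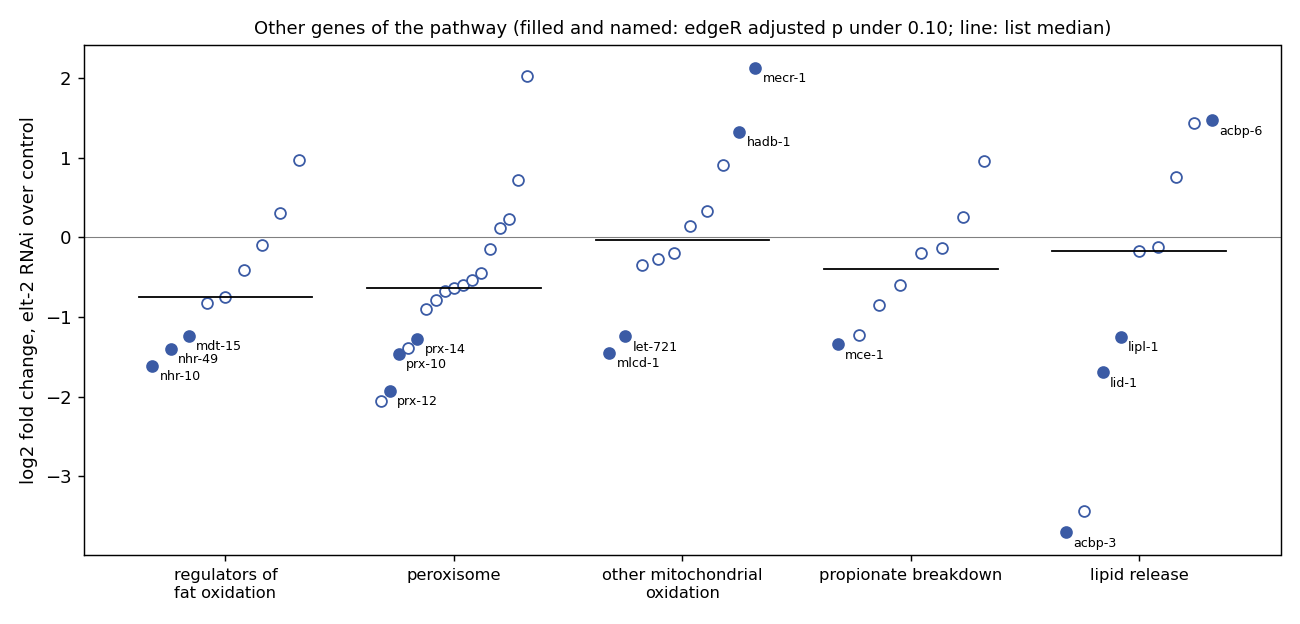
Log2 fold change (y axis, RNAi-labelled libraries over the control-labelled ones) of the tested genes of 5 pathway lists, with called genes filled and named and a line at each list median. Called genes are 3 of 9 regulators and 3 of 17 peroxisome genes, all below 0, against 15.9% of all tested genes called lower, and the list medians are -0.75 and -0.64.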

How the data were processed

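Whole-worm poly-A RNA of 3 libraries labelled elt-2 RNAi and 3 labelled control was sequenced from its 3-prime ends (3SEQ). The authors deposited raw counts of reads per gene, with 1 column for each library. The submitters' processing notes name Bowtie 0.12.7. The counting program, genome build, annotation and use of strand were not given in the sources used here. The study tested the table with rank products at 10% FDR, which were not run here, and edgeR took their place.

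Sequence names were paired with symbols and positions of WBcel235 (Ensembl release 115), which are not part of the deposited table, for 19081 of 19512 genes (97.8%). edgeR 4.0.16 (R 4.3.3) was fitted to the whole table after filterByExpr, with TMM factors and the label as the only term, by its two-sided quasi-likelihood test. A gene was called when its adjusted p (Benjamini-Hochberg) was under 0.10. The SE was obtained by dividing the size of the log2 fold change by the root of F. CPM are counts per 1000000 of the TMM-scaled library size, and log2 CPM used a prior count of 2. An exact permutation test was added for elt-2, on log2 CPM plus 0.1. The biological coefficient of variation was 0.525. Tested on simulated data with known changes, the procedure recovered them at low dispersion and recovered none at the dispersion of these libraries, so an uncalled gene is not shown to be unchanged.

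The members, the classes, the pathway and marker lists, and the alternatives were chosen with earlier results of these data known. Classes followed gene families, and the acs genes were kept apart since they act in several compartments. Named members were the core enzymes of both chains, acs-1, acs-2, acs-7, acs-19, acs-20, acs-22, all called members, and the 3 highest and 3 lowest tested members of each class. Called genes of the pathway lists were also named. The alternatives tried were scaling by library size alone or by the sizes left after dropping the most abundant 3% of genes, DESeq2 1.42.0, testing unfiltered genes, a filter of 10 counts in each library, a replicate block, leaving out each library or both B libraries, a wider class assignment and an adjusted p under 0.05. Figures were drawn with matplotlib 3.10.9.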

Additional observations from a re-analysis of the deposited data

How the results depend on the processing

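acs-6 kept its call in each fit that left out 1 library. The other 12 calls were lost in at least 1 of these fits, and all 12 without elt-2 RNAi C (edgeR adjusted p from 0.114 to 0.308). Leaving out 1 library gave 1 to 18 called members and an elt-2 difference of 2.80 to 5.24. Members called lower were 0 to 10 and higher 1 to 10, beside 0.157% to 18.3% and 3.5% to 15% of all genes. Members called were 32 with library size alone (30 lower, 2 higher, beside 52.3% and 3.84% of all genes). Without the most abundant 3% of genes they were 25 (21 lower, beside 33.9% of all genes). With the replicate block they were 8 (5 lower, 3 higher, beside 2.95% and 7.67% of all genes). The calls of acdh-7, cpt-2, acs-16, acs-22 and acs-7 were lost under that block (edgeR adjusted p from 0.115 to 0.245). At an adjusted p under 0.05 the called members were 7 (4 lower, 3 higher), and the share of all genes was not taken there. Without both B libraries 11 of 56 tested members were called lower and 2 higher, beside 8.36% and 7.57% of all genes. The calls of kat-1, acs-16, acs-2, acs-20 and ech-4 were lost there (edgeR adjusted p from 0.101 to 0.173). The letters pair nothing that the labels name. Deviations from the group means correlated at -0.207, -0.571 and -0.0981 for letters A, B and C. No library correlated best with its own letter. With 3 libraries in each group these values cannot show whether libraries of a letter shared a batch or handling. The median log2 fold change of mitochondrial members was -1.95 with library size alone and -0.73 without the most abundant genes. That of the synthetases was -2.44 and -1.24 under these settings, in that order, and -0.23 with at least 10 counts in every library. Peroxisomal members were at -1.97 with library size alone, -2.13 without both B libraries and -1.78 to -0.14 when 1 library was left out. Relative to the median of all genes, the medians were -0.01, -0.16 and -0.54 for mitochondrial, peroxisomal and synthetase members, and -0.19, -0.21 and -0.68 with library size alone.

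Signs turned for uncalled members. Under library size alone, the log2 fold changes were -1.49 for ech-1.2, -0.78 for ech-6, -1.43 for acox-1.1, -0.21 for acox-1.2, -0.34 for acox-1.4, -0.86 for daf-22, -0.91 for acs-1, -1.65 for ech-2 and -1.60 for ech-5. Without the most abundant genes they were -0.47 for ech-1.2, -0.47 for acox-1.1, -0.13 for daf-22, -0.45 for ech-2 and -0.52 for ech-5. With at least 10 counts in every library they were -0.034 for ech-1.2, -0.049 for acox-1.1, -0.0075 for ech-2 and -0.073 for ech-5. With the replicate block acox-1.1 was at -0.035, acox-1.4 at -0.56 and ech-7 at -3.40. Without both B libraries acox-1.1 was at -0.68, acox-1.2 at -0.20, acox-1.4 at -2.80, ech-5 at -0.43 and ech-7 at -5.77. In DESeq2 ech-3 was at 0.018. Leaving out 1 library gave -0.12 to 0.30 for ech-1.2, -0.40 to 0.44 for acox-1.1, -2.17 to 2.28 for acox-1.4, -0.16 to 0.66 for daf-22, -0.19 to 0.12 for ech-3, -0.22 to 0.36 for ech-5 and -5.07 to 3.24 for ech-7. Apart from the scalings, the cause was not tested.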
